A study of Homo sapiens with 12 samples.

Results

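Transcript levels were compared between young HCA2 fibroblasts that carried a short hairpin against FBXO22 (shFbxo22) and young HCA2 fibroblasts that carried a control hairpin against luciferase (shLuc), with 3 libraries in each group. The members are all genes of the authors' deposited table for these 6 libraries: 55737 of its 55765 rows, after 28 rows with a date in place of a gene symbol were left out. The authors gave 20082 of these genes an adjusted p, and only those could be called. The study holds 12 libraries in 4 groups of 3, and the other 6 come from the same cells after 10 Gy of ionizing radiation, which the labels call senescent. HCA2, also named MJ90, is an established line of human skin fibroblasts, and young means low passage here. Both hairpins were inducible with doxycycline, so the control libraries carry an induced hairpin as well. The cells grew in DMEM with 10% fetal bovine serum. The labels name 1 hairpin per target, and nothing in them tells whether replicate libraries derive from separate cultures. The p-values may thus rest on technical spread only, and effects of loss of FBXO22 cannot be told apart from other effects of this hairpin or of the culture that carried it. The labels' treatment text lists the irradiation for every library, young ones included, and the young groups are taken here as their titles and passage labels give them.

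FBXO22 is an F-box protein, the part of an SCF ubiquitin ligase that binds the substrate, while SKP1, CUL1 and RBX1 form the rest of the ligase. Together with the histone demethylase KDM4A it is known to bring methylated p53 to the ligase for degradation, and it also acts on KDM4A, BACH1 and other proteins. The transcription factor p53 activates CDKN1A, which encodes the CDK inhibitor p21, and many genes of arrest, death, repair and metabolism. Inhibition of CDKs by p21 keeps RB family proteins active, and the E2F and DREAM complexes then hold replication and mitotic genes low.

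The table gives, for each gene, a base mean (the mean normalized count over the 6 libraries), a log2 fold change with its standard error (SE), and a p from the DESeq2 Wald test with its adjusted value. All fold changes below are shFbxo22 over shLuc on the log2 scale with the authors' SE, and all are taken from the authors' deposited table. They were moderated towards 0 by the authors, so changes of weakly expressed genes are understated. A gene is said to rise or fall where the authors' adjusted p was under 0.05. Values per library were not analysed here, and the mean of each group was reconstructed from the base mean and the fold change. Such means are printed only for genes where the senescence table of the same hairpin gave the same mean within 10%. They carry no error of their own.

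By this rule 7218 of the 20082 tested genes changed, which is 35.9%: 3753 were higher with shFbxo22 (18.7%) and 3465 were lower (17.3%). These 2 shares are the background for every list below, and the median fold change of all tested genes was -0.01. Of the 7218 calls, 2867 were under 1.5-fold, while 1094 genes rose and 1118 fell by at least 2-fold (5.45% and 5.57%). The share of genes called grew with the level, from 9.34% in the fifth of genes with the lowest base means to 53.1% in the fifth with the highest. The background is thus not matched for level, and a list of abundant genes can exceed it through level alone. The 16 fibroblast markers examined were all abundant, with base means from 177 to 214842, and 9 of them rose and 1 fell. Of the markers of other cell types, 5 of 10 epithelial, 4 of 7 endothelial, 5 of 8 leukocyte, 4 of 6 melanocyte and 5 of 8 muscle markers had base means under 5, while 2 of 8 neuronal markers did. Several were well expressed and changed. The muscle intermediate filament DES, at a base mean of 314, was at -3.34 ± 0.17, the endothelial receptor KDR, at 299, at -1.41 ± 0.50, the epithelial cadherin CDH1, at 116, at -2.19 ± 0.51 and the neuronal tubulin TUBB3, at 3648, at -0.77 ± 0.13. The SE of KDR and CDH1 were large for their level, as genes with base means from 84 to 352 had a median SE of 0.19. Whether single libraries set these 2 values cannot be seen here. The desmosomal DSP, at a base mean of 1949, rose by 0.67 ± 0.10, MITF, at 952, by 0.44 ± 0.12 and MAP2, at 619, by 0.69 ± 0.13. Against KDR, the endothelial markers VWF, at a base mean of 46.9, and TEK, at 94.6, rose by 1.26 ± 0.30 and 0.87 ± 0.22. Called markers were thus 2 higher and 1 lower for endothelium, 1 higher and 2 lower for epithelium, and 3 higher and 1 lower for neurons. The part of other cell types in the results below was not tested. In whole-culture RNA, fewer cells of a kind and less RNA per cell cannot be told apart.

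**Figure D1:**
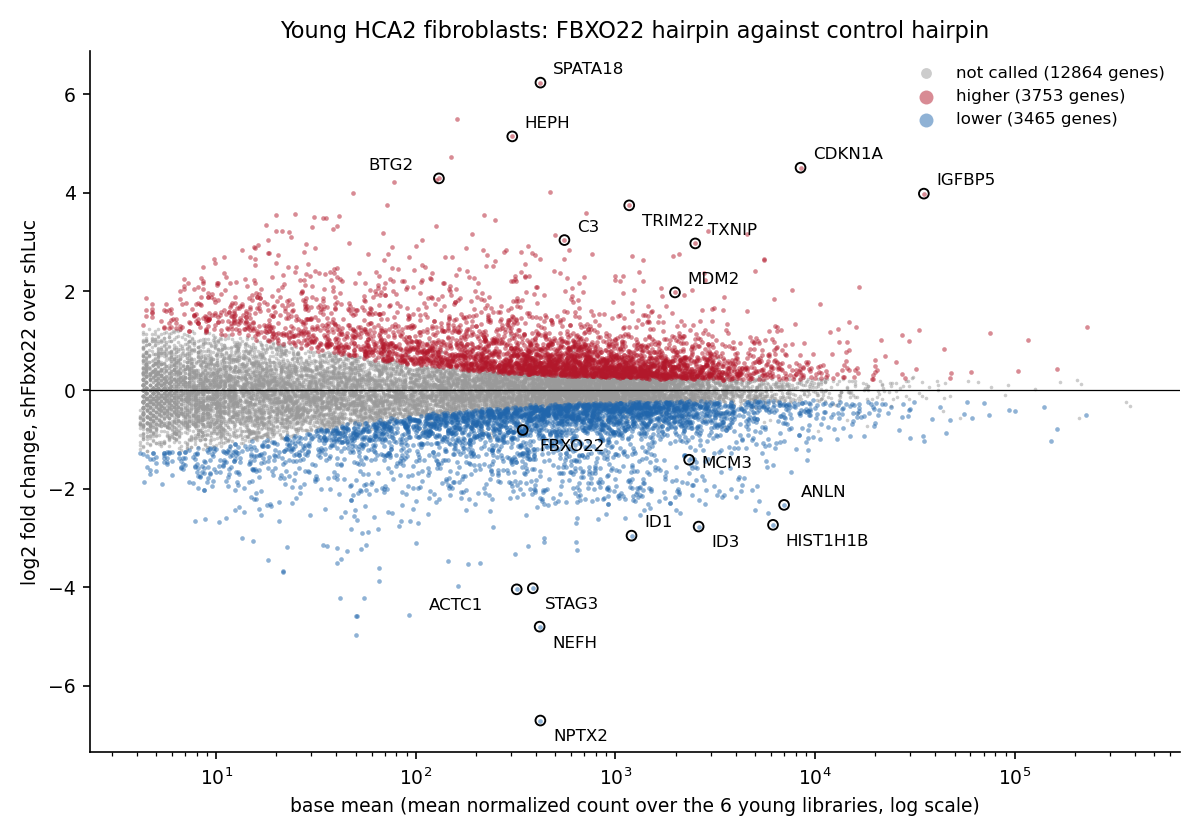
Log2 fold change, shFbxo22 over shLuc, against base mean on a log axis for the 20082 tested genes of young cells, 1 point a gene, with called genes in colour. CDKN1A and IGFBP5 combine a large rise with a high level, FBXO22 lies among the lower genes, and NPTX2 has the lowest value.

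FBXO22 itself was lower in the shFbxo22 libraries, as their label says. Its mean normalized count was 437 with shLuc and 249 with shFbxo22, and the deposited log2 fold change was -0.81 ± 0.15 (DESeq2 Wald test, adjusted p = 1.07e-06). The transcript was thus reduced and not lost, and moderation may understate the reduction. Of the 12 genes of the ligase and its known partners and substrates, 5 rose and 2 fell, with a median of 0.08. The ligase subunit SKP1 stood at 0.16 ± 0.10 and was not called. Among partners and substrates, KLF4, a transcription factor, rose by 1.52 ± 0.11, and the histone demethylases KDM4C and KDM4B rose by 0.64 ± 0.13 and 0.48 ± 0.16. STK11, which encodes the kinase LKB1, fell with a value of -0.71 ± 0.11. The membrane protein BSG, at -0.06 ± 0.09, was not called.

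The p53 targets of arrest and feedback formed the list with the highest median of the 52 examined. The lists were chosen with earlier results of these data known. All 18 of 18 targets of arrest and feedback rose, with a median of 1.57, beside 18.7% higher among all genes. CDKN1A, the gene of p21, went from a mean normalized count of 711 with shLuc to 16209.5 with shFbxo22, a log2 change of 4.51 ± 0.10 or 22.8-fold. BTG2, an antiproliferative gene, rose by 4.30 ± 0.29, and TRIM22, an interferon- and p53-induced ubiquitin ligase, went from 162 to 2183, a change of 3.75 ± 0.12. The p53 cofactor TP53INP1 rose by 2.66 ± 0.15 and the stress protein gene SESN2 by 1.55 ± 0.12. The feedback genes rose as well: MDM2, the ubiquitin ligase that degrades p53, was at 1.98 ± 0.10, and PPM1D, the phosphatase WIP1, at 0.92 ± 0.16. The smallest value of the list was that of the kinase PLK2, at 0.84 ± 0.11.

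Of 15 tested p53 targets of cell death, 12 rose and 1 fell, with a median of 0.97. The decoy receptor TNFRSF10C rose by 4.26 ± 0.28, the ectodysplasin receptor EDA2R by 2.83 ± 0.13, the TRAIL receptor TNFRSF10A by 2.05 ± 0.22 and FAS by 1.92 ± 0.14. FAS went from a mean normalized count of 253 to 956. The BH3-only genes split: BBC3, which encodes PUMA, rose by 2.26 ± 0.23, BID at 0.15 ± 0.16 was not called, and PMAIP1, which encodes NOXA, fell with -0.66 ± 0.16. APAF1, the core of the apoptosome, stood at 0.06 ± 0.14 and was not called.

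Among 19 tested p53 targets of repair and metabolism, 15 rose and 1 fell, with a median of 0.66. SPATA18, a gene of mitochondrial quality control, had the largest increase among genes above the median level, 6.24 ± 0.27. CYFIP2 rose by 3.56 ± 0.21, the ferredoxin reductase FDXR by 2.22 ± 0.18, the lysosomal fucosidase FUCA1 by 1.99 ± 0.16 and the damage-recognition gene DDB2 by 1.78 ± 0.13. FDXR went from 108 to 505 in mean normalized count. CPT1C moved against the list with -0.42 ± 0.13. The peroxidase GPX1 at 0.24 ± 0.12, the copper chaperone SCO2 at -0.06 ± 0.18 and GLS2 at 0.04 ± 0.52 were not called.

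**Figure D2:**
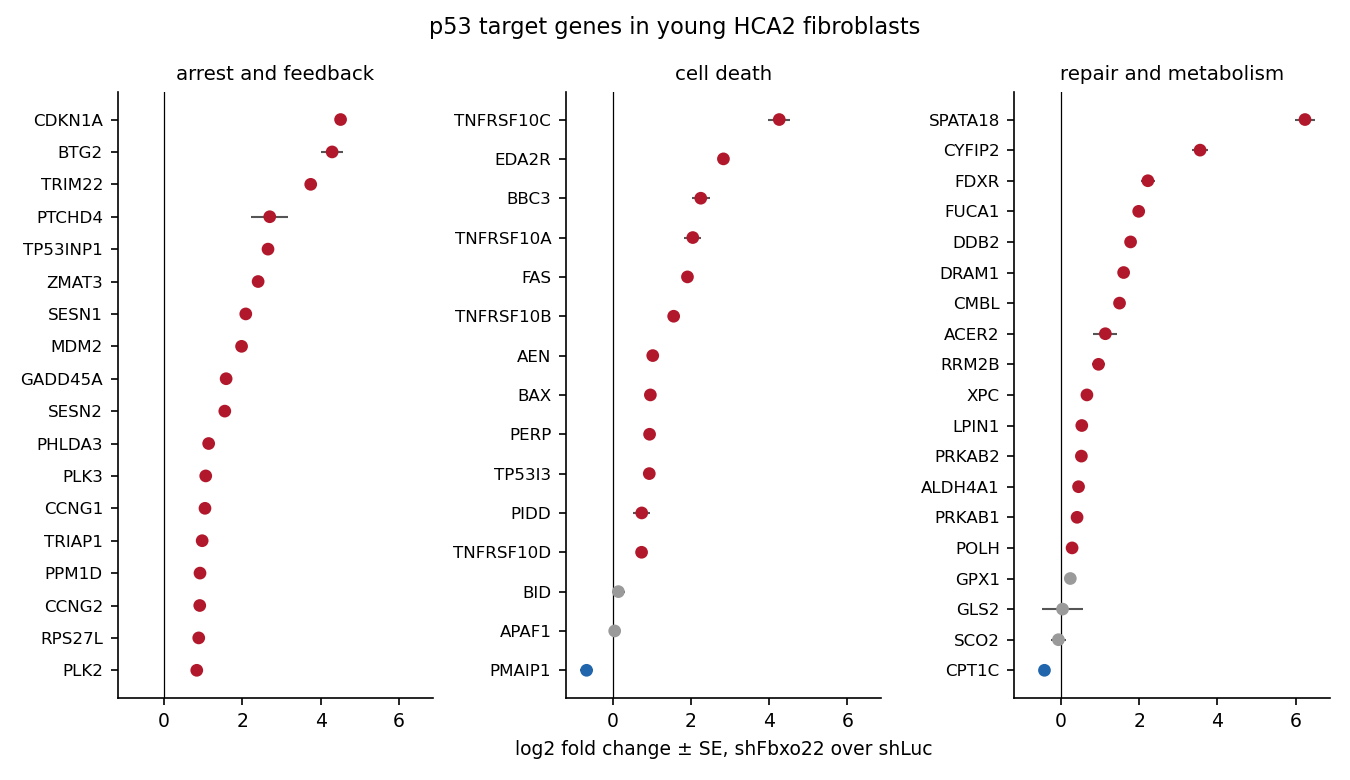
Log2 fold change with the authors' SE, shFbxo22 over shLuc in young cells, for every tested member of 3 lists of p53 targets. Red points were called higher, blue points lower and grey points were not called; all 18 arrest and feedback genes lie to the right of 0, while PMAIP1 and CPT1C lie to the left.

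Of 14 tested genes of the p53 pathway list that act on or beside p53, 0 rose and 8 fell, with a median of -0.33; with both groups scaled to equal summed means 1 rose. The checkpoint kinase genes CHEK1, ATM, CHEK2 and ATR fell with -0.84 ± 0.12, -0.77 ± 0.28, -0.66 ± 0.16 and -0.63 ± 0.12, and the p53 kinase gene HIPK2 fell with -0.57 ± 0.11. The acetyltransferase genes EP300 and CREBBP, at 0.20 ± 0.09 and -0.08 ± 0.10, were not called.

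The CDK inhibitors did not move as a group: 3 of 8 rose and 4 fell. Beside CDKN1A, CDKN2B, the gene of p15, rose by 1.58 ± 0.16 and CDKN1C, the gene of p57, by 1.26 ± 0.26. CDKN1B, the gene of p27, was at -0.02 ± 0.12 and was not called. CDKN2C, the gene of p18, fell with -1.71 ± 0.12, and CDKN3, a phosphatase gene that cycling cells express, fell with -1.67 ± 0.13.

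Of 18 cyclin, CDK and CDC25 family genes, 12 fell and 1 rose, with a median of -1.35. The largest falls were in genes of mitotic entry. CDK1 went from a mean normalized count of 1263 to 266, a change of -2.25 ± 0.16, and its partners CCNA2 and CCNB1 fell with -2.17 ± 0.11 and -2.17 ± 0.09. PKMYT1, a kinase that inhibits CDK1, fell with -2.20 ± 0.16. The D-type cyclin genes and CDK6 did not follow: CCND1 at 0.00 ± 0.09, CCND3 at -0.13 ± 0.12 and CDK6 at 0.10 ± 0.11 were not called, and CCND2 rose by 3.76 ± 0.33. This does not extend to all genes of G1 in the list.

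Among 19 genes of the E2F, RB and DREAM complexes, 14 fell and 1 rose, with a median of -0.76. MYBL2, which replaces the repressive DREAM partners in cycling cells, fell with -2.53 ± 0.12, from 2275 to 395. The E2F family genes E2F8, E2F1 and E2F2 fell with -2.21 ± 0.21, -1.83 ± 0.14 and -1.80 ± 0.19, and LIN9, a subunit of the DREAM core, with -1.69 ± 0.21. The E2F partner gene TFDP2 rose by 0.45 ± 0.12. The RB relative RBL2 at -0.22 ± 0.10 and E2F5 at -0.01 ± 0.32 were not called.

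The mitotic genes fell without exception in 2 of 3 lists. All 25 of 25 mitotic kinases, kinesins and cytokinesis genes fell, with a median of -2.03, the lowest of the 52 lists. The spindle kinesin KIF18B fell with -2.52 ± 0.12, the minus-end kinesin KIFC1 with -2.40 ± 0.12, the centriole kinase PLK4 with -2.37 ± 0.14, the cytokinesis scaffold ANLN with -2.33 ± 0.10 and PLK1 with -2.23 ± 0.12. ANLN went from a mean normalized count of 11676 to 2321. All 29 of 29 kinetochore and checkpoint genes fell, with a median of -1.80. The large kinetochore proteins CENPE, CASC5 and CENPF fell with -2.62 ± 0.13, -2.60 ± 0.14 and -2.50 ± 0.10, and NUF2 of the NDC80 complex with -2.34 ± 0.17. Of 27 genes of the anaphase-promoting complex, cohesin and condensin, 22 fell and 0 rose, with a median of -1.29. Falls in this list included the activator CDC20 (-2.31 ± 0.11), the ubiquitin-conjugating enzyme UBE2S (-2.26 ± 0.11) and the condensin subunits NCAPH (-2.21 ± 0.12) and NCAPG (-2.21 ± 0.12). The core ligase subunits CDC23, CDC16 and ANAPC5, at -0.01 ± 0.11, -0.08 ± 0.10 and -0.17 ± 0.09, were not called. STAG3, a cohesin subunit known from meiosis, fell the most of this list, with -4.02 ± 0.18.

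Cell cycle genes are known to carry short promoter elements: the cell cycle genes homology region (CHR), which DREAM and MMB complexes contact, and E2F sites. To show them, RefSeq windows from 250 bases before to 50 bases after the first listed start of each gene were searched on both strands (build GRCh38.p14, the build of the RefSeq table and not that of the authors' processing). A window was at hand for 10406 of the 20082 tested genes. The CHR was searched as TTTGAA, the E2F site as TTTCCCGC or TTTGGCGC, and the CCAAT box as CCAAT. The letters of the 3 motifs do not contain each other. The following lines give the 250 bases before the start, 5′ to 3′ on the strand of the gene, for the 3 mitotic and cyclin list members with the highest base mean that hold a CHR there, with each match in capitals.
ANLN, chr7:36389612-36389861, plus strand: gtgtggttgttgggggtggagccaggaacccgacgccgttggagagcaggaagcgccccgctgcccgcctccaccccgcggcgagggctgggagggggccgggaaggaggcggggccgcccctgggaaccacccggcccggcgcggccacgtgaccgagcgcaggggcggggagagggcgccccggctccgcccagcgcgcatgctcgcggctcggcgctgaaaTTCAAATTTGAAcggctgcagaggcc
NCAPD2, chr12:6493852-6494101, plus strand: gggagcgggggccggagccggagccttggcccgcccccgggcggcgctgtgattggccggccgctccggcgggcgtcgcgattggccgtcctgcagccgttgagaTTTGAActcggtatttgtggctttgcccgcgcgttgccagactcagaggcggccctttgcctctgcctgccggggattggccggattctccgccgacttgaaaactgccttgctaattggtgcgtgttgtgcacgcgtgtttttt
PRC1, chr15:90994536-90994785, minus strand: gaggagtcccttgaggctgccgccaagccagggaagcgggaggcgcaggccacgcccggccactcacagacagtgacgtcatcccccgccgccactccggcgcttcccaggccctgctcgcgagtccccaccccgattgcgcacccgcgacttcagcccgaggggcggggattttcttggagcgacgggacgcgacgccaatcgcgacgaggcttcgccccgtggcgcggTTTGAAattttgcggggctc
ANLN encodes a scaffold of the cleavage furrow, NCAPD2 a condensin subunit and PRC1 a bundler of the central spindle. In ANLN and PRC1 the last match begins 20 bases before the start, and in NCAPD2 it begins 145 bases before it. Their log2 changes were -2.33 ± 0.10, -1.51 ± 0.09 and -2.17 ± 0.09.

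The same rule applied to E2F sites and to the replication and nucleotide lists gave 3 subunits of the MCM helicase, which unwinds DNA at the fork.
MCM7, chr7:100101398-100101647, minus strand: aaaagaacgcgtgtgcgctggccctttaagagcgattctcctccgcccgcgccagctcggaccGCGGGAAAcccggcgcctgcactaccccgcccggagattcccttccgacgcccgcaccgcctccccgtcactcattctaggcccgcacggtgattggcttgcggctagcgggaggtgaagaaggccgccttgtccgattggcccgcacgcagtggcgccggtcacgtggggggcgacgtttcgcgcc
MCM3, chr6:52284743-52284992, minus strand: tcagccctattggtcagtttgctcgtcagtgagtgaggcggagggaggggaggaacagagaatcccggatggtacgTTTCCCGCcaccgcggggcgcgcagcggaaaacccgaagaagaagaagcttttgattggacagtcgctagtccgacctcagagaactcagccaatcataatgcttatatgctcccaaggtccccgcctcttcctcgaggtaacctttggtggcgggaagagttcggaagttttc
MCM6, chr2:135876444-135876693, minus strand: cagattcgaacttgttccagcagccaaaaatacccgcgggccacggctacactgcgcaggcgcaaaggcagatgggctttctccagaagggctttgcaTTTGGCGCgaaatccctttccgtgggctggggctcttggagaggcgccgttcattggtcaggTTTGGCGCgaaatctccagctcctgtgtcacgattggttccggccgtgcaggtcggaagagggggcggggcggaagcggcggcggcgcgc
Their log2 changes were -1.77 ± 0.10, -1.41 ± 0.09 and -0.89 ± 0.10, and all 3 fell.

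The CHR letters stood in 17 of 21 windows of the mitotic kinase, kinesin and cytokinesis genes (81%), in 12 of 23 of the kinetochore genes (52.2%) and in 1 of 31 of the replication genes, beside 9.79% of all windows. The E2F letters stood in 14 of 31 replication windows (45.2%) and in 1 of 21 windows of the mitotic kinase list (4.76%), beside 3.65% of all. A high CHR share was not limited to lists that fell: the letters stood in 5 of 13 complement and coagulation windows (38.5%), a list with 15 genes higher and 3 lower. Some lists held both above the shares of all windows: the letters of CHR and E2F stood in 52.2% and 8.7% of the kinetochore windows, 41.7% and 12.5% of the APC/C, cohesin and condensin windows, and 18.8% and 31.2% of the E2F, RB and DREAM windows. The CCAAT box was found in 36.4% of all windows and in 81% of the mitotic kinase list. Over all genes that fell by at least 2-fold, 22.4% of 544 windows held a CHR, 9.01% an E2F site and 49.4% a CCAAT box. Genes that rose by at least 2-fold had 13%, 2.28% and 34.5% of 702 windows. These shares are a description of letters and no test was made. The full p53 site was searched as well, by its consensus with up to 13 bases between its 2 parts. It was found in 3 of all 10406 windows (0.0288%), 2 of them among the 702 of genes that rose by at least 2-fold (0.285%). Counts this small cannot be read as a pattern. No match says only that the letters are not in this window.

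**Figure D3:**
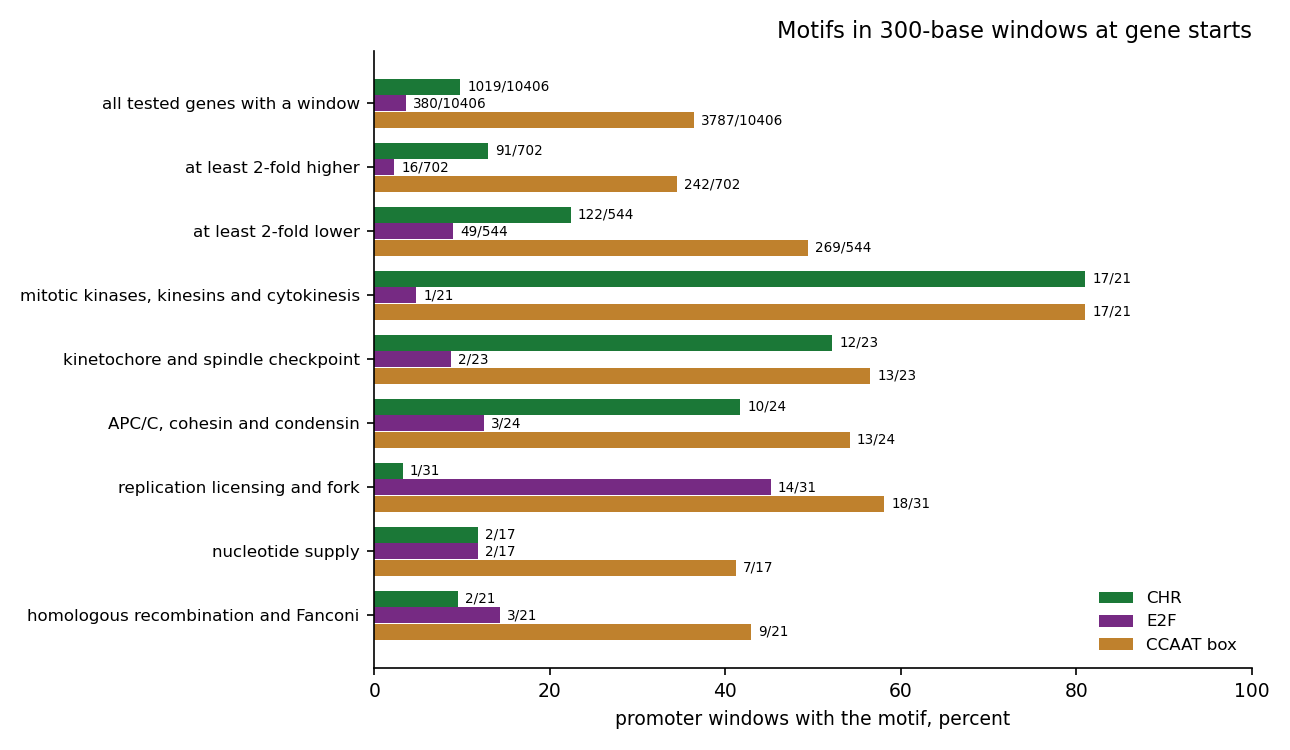
Share of 300-base RefSeq promoter windows that hold the CHR, an E2F site or a CCAAT box, in percent, for all tested genes with a window, for genes at least 2-fold higher or lower, and for 6 lists; the counts stand beside the bars. CHR bars are longest for the mitotic kinase list at 81.0% and E2F bars for the replication list at 45.2%.

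All 36 of 36 genes of replication licensing and the fork fell, with a median of -1.46. The licensing factor genes MCM10, CDT1 and ORC6 fell with -2.31 ± 0.14, -2.09 ± 0.18 and -2.05 ± 0.15, CDC45 of the replicative helicase with -1.94 ± 0.15, and MCM2 with -1.89 ± 0.10. MCM2 went from a mean normalized count of 3589 to 966. Of 20 genes of nucleotide supply, 17 fell and 1 rose, with a median of -0.89. The subunits of ribonucleotide reductase, which makes deoxynucleotides, moved apart: RRM2, the S-phase subunit, fell with -2.03 ± 0.10, RRM1 fell with -1.21 ± 0.10, and RRM2B, the subunit that p53 induces, rose by 0.96 ± 0.17. The thymidylate pathway genes TK1 and DTYMK fell with -1.38 ± 0.11 and -1.30 ± 0.12. SAMHD1, which degrades deoxynucleotides, was at -0.08 ± 0.10 and IMPDH1 at -0.05 ± 0.13, and neither was called.

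Of 24 homologous recombination and Fanconi genes, 21 fell and 0 rose, with a median of -1.50. BRCA2 fell with -2.11 ± 0.17, BRCA1 with -1.89 ± 0.12, and the recombination genes XRCC3, XRCC2 and RAD54L with -2.19 ± 0.16, -1.98 ± 0.23 and -2.03 ± 0.14. PALB2 at -0.21 ± 0.13 and the Fanconi genes FANCE and FANCF at -0.12 ± 0.13 and 0.31 ± 0.18 were not called. All 47 of 47 clustered histone genes fell, with a median of -1.88. The linker histone HIST1H1B fell with -2.73 ± 0.14 and the core histones HIST1H2BL, HIST1H2BM and HIST1H4A with -2.43 ± 0.12, -2.32 ± 0.13 and -2.31 ± 0.11. HIST1H1B went from 10708 to 1608 in mean normalized count. Many of these genes have near-identical copies, among them HIST2H3D at -3.25 ± 0.20, so reads could be split between copies and the value of a single copy is uncertain.

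Among 20 variant histones and histone chaperones, 14 fell and 1 rose, with a median of -0.77. The centromere chaperone HJURP fell with -2.24 ± 0.11, the replication chaperones ASF1B and CHAF1A with -1.95 ± 0.15 and -1.67 ± 0.12, and the variants H2AFX and H2AFZ with -1.90 ± 0.14 and -1.56 ± 0.11. H2AFY2, a macroH2A gene, rose by 1.30 ± 0.17. Of 19 genes of the nuclear lamina and high-mobility-group proteins, 16 fell and 1 rose, with a median of -0.73. TMPO, LMNB2 and LMNB1, which encode lamina proteins, fell with -2.07 ± 0.12, -1.81 ± 0.13 and -1.75 ± 0.12, and LMNB1 went from 1399.8 to 416. HMGB2, a chromatin protein, fell with -1.67 ± 0.10, while HMGA2 rose by 0.60 ± 0.11. In the list of Polycomb and DNA methylation genes, 9 of 20 fell and 2 rose, with a median of -0.25. UHRF1 and DNMT1, which maintain DNA methylation after replication, fell with -2.10 ± 0.11 and -1.41 ± 0.09. The methyltransferase EZH2 fell with -1.57 ± 0.12, and its paralogue EZH1 rose by 0.81 ± 0.11.

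**Figure D4:**
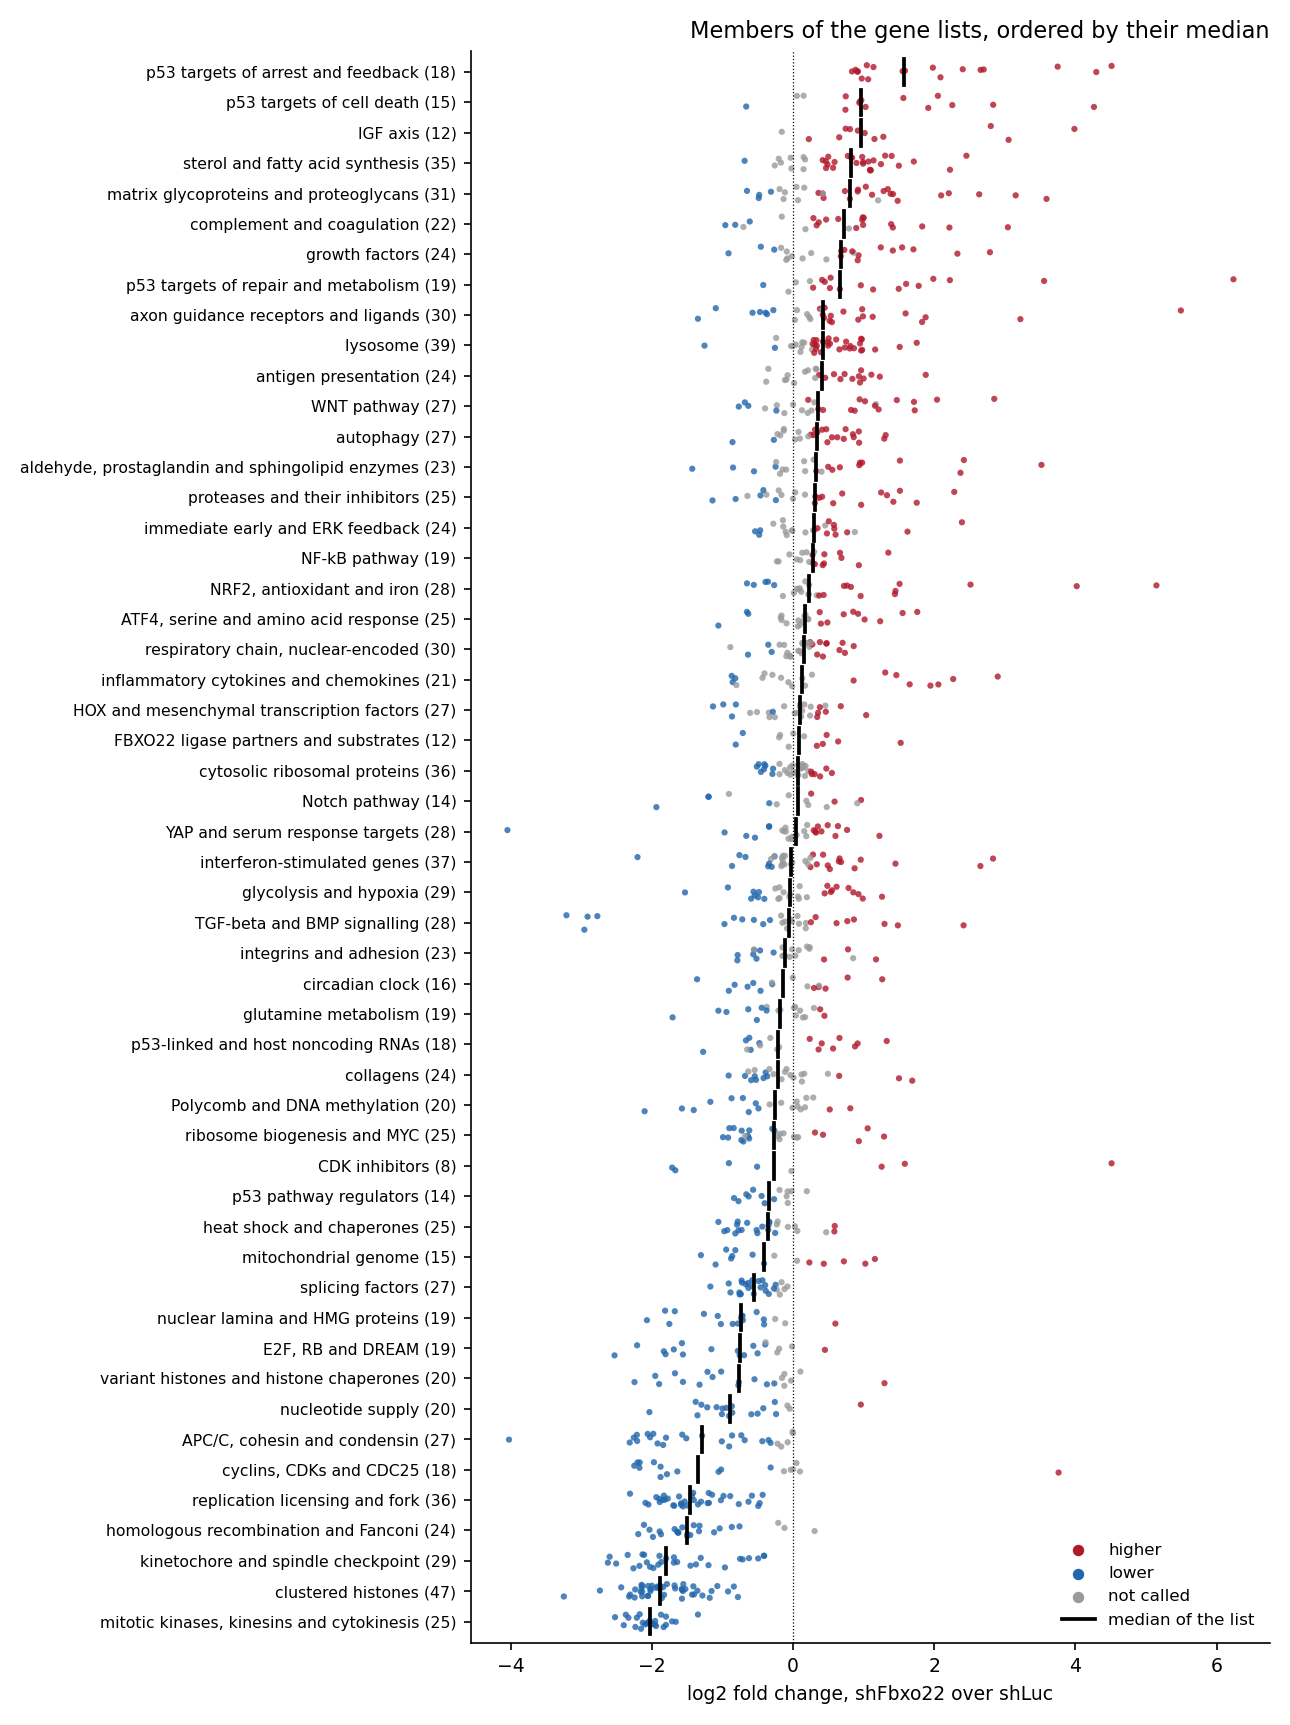
Log2 fold change, shFbxo22 over shLuc in young cells, of every tested member of 52 gene lists, 1 point a gene, with the number tested in parentheses, the median as a black bar and called genes in colour. The lists of arrest and feedback targets of p53 (median 1.57) and of mitotic kinases (median -2.03) lie at the ends.

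Genes of RNA handling and protein folding were more often lower than higher. Of 27 splicing factor genes, 22 fell and 0 rose, with a median of -0.56. HNRNPH1 fell with -1.17 ± 0.09, HNRNPA2B1 with -0.91 ± 0.11 and SRSF7 with -0.89 ± 0.10, while HNRNPK at -0.08 ± 0.11 and SF3B1 at -0.12 ± 0.10 were not called. Of 25 heat shock and chaperone genes, 17 fell and 2 rose, with a median of -0.35. HSP90AA1 fell with -0.93 ± 0.11 and the mitochondrial chaperonins HSPE1 and HSPD1 with -0.97 ± 0.18 and -0.79 ± 0.10. In ribosome biogenesis and MYC genes, 12 of 25 fell and 5 rose. MYC itself stood at 0.05 ± 0.10 and was not called, the MYC antagonists MXD1, MXI1 and MXD4 rose by 1.29 ± 0.20, 1.06 ± 0.15 and 0.93 ± 0.12, and the nucleolar genes BOP1 and NCL fell with -0.99 ± 0.19 and -0.92 ± 0.10. The 36 cytosolic ribosomal protein genes had 6 calls higher and 8 lower, all under 2-fold, with a median of 0.07.

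Of 30 nuclear genes of the respiratory chain, 11 rose and 3 fell, with a median of 0.16. NDUFA1 and COX5A rose by 0.86 ± 0.14 and 0.74 ± 0.14, and CYC1 fell with -0.64 ± 0.16. The mitochondrial genome's own 15 genes split, with 5 higher and 8 lower. The ribosomal RNAs MT-RNR1 and MT-RNR2 rose by 1.16 ± 0.11 and 1.02 ± 0.12 and MT-CO2 by 0.72 ± 0.11, while MT-ND2 and MT-ATP6 fell with -1.30 ± 0.19 and -0.95 ± 0.19. These genes lie on 1 compact genome and some overlap, so their reads may be shared.

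Of 21 tested cytokines and chemokines, 8 rose and 3 fell, with a median of 0.13. IL1A rose by 2.90 ± 0.48, LIF by 2.27 ± 0.18, IL1B by 2.06 ± 0.35, IL33 by 1.95 ± 0.49 and the chemokine CCL5 by 1.65 ± 0.36. LIF went from 67.3 to 324 in mean normalized count. The SE of IL1A and IL33 were near 0.50, the median SE of the fifth of genes with the lowest base means. In this list 6 of 27 entries were not tested, so weakly expressed members may be counted only through their level with shFbxo22. CXCL5, IL11 and CXCL12 fell with -0.87 ± 0.33, -0.85 ± 0.24 and -0.82 ± 0.08. CXCL1, CSF1 and CCL2 were not called, at 0.13 ± 0.20, -0.17 ± 0.10 and -0.29 ± 0.14. In the insulin-like growth factor axis, 11 of 12 tested genes rose and 0 fell, with a median of 0.97. IGFBP5, a binding protein, went from a mean normalized count of 4167 to 66014, a change of 3.99 ± 0.10 or 15.8-fold. The ligand IGF2 rose by 3.05 ± 0.25 and the binding proteins IGFBP2, IGFBP3 and IGFBP7 by 2.80 ± 0.19, 1.28 ± 0.09 and 1.15 ± 0.12. The receptor substrate IRS1 at -0.16 ± 0.11 was the 1 tested member not called.

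Among 25 proteases and their inhibitors, 13 rose and 5 fell, with a median of 0.31. The aggrecanase ADAMTS5 rose by 2.28 ± 0.12, the collagen-degrading cathepsin CTSK by 1.75 ± 0.11 and the plasminogen activator PLAT by 1.51 ± 0.11. The collagenase MMP1 fell with -1.14 ± 0.12, and the stromelysin MMP3 with -0.46 ± 0.08. MMP1 went from 7741 to 3512 in mean normalized count. Of 24 growth factors, 12 rose and 3 fell, with a median of 0.68. GDF15, a stress hormone that p53 induces, rose by 2.79 ± 0.21, TGFA by 2.33 ± 0.42, ANGPTL4 by 1.71 ± 0.47 and HGF by 1.55 ± 0.27, while HBEGF and VEGFC fell with -0.91 ± 0.30 and -0.46 ± 0.09. VEGFA at -0.09 ± 0.14 and FGF2 at -0.10 ± 0.09 were not called.

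In TGF-beta and BMP signalling, 8 of 28 genes rose and 10 fell, with a median of -0.06. The largest falls were those of NOG, ID1, ID4 and ID3, the only 4 genes of the list lower by at least 2-fold, so ID2 was not among them. BMP signalling is known to induce ID genes directly. ID1 went from a mean normalized count of 2133 to 275, a change of -2.95 ± 0.13, ID3 from 4555 to 667, a change of -2.77 ± 0.11, and ID4 fell with -2.91 ± 0.32. The ID proteins bind and block basic helix-loop-helix factors. The BMP antagonist NOG fell with -3.21 ± 0.38, while the ligand BMP2 rose by 2.42 ± 0.39 and the inhibitory pseudoreceptor BAMBI by 1.49 ± 0.21. SMAD3 at -0.01 ± 0.09, TGFBR2 at 0.18 ± 0.09 and the antagonist GREM1 at 0.06 ± 0.11 were not called. Among 28 targets of YAP and serum response factor, 10 rose and 6 fell, with a median of 0.04. Actin genes moved apart: the cardiac actin ACTC1 fell with -4.04 ± 0.19, from 604 to 36.6, and the smooth muscle actin ACTA2 rose by 1.22 ± 0.09. The calponin CNN1 fell with -0.97 ± 0.12 and the myosin MYH9 with -0.66 ± 0.11.

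Of 27 tested WNT pathway genes, 14 rose and 4 fell, with a median of 0.36. The antagonists SFRP4 and SFRP2 rose by 2.85 ± 0.49 and 1.72 ± 0.41, the ligand WNT2 by 1.71 ± 0.15, the agonist RSPO3 by 2.04 ± 0.28 and the feedback gene AXIN2 by 1.47 ± 0.23. The antagonist DKK1 and the receptor FZD7 fell with -0.77 ± 0.10 and -0.68 ± 0.10. In the Notch pathway 3 of 14 tested genes rose and 4 fell. The receptor NOTCH1 fell with -1.20 ± 0.16, the glycosyltransferase LFNG with -1.93 ± 0.20 and the target HES1 with -1.19 ± 0.28, while NOTCH3 and the ligand JAG1 rose by 0.59 ± 0.15 and 0.96 ± 0.13.

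Of 31 matrix glycoproteins and proteoglycans, 19 rose and 4 fell, with a median of 0.81. The sulfatases SULF2 and SULF1, which edit heparan sulfate, rose by 3.59 ± 0.14 and 2.64 ± 0.09, the small proteoglycans PRELP and DCN by 3.15 ± 0.15 and 2.10 ± 0.12, and the crosslinking enzyme LOXL4 by 2.21 ± 0.10. DCN went from 6312 to 27029 in mean normalized count. BGN, the proteoglycan biglycan, fell with -0.65 ± 0.13. Of 24 collagen genes, 3 rose, 8 fell and 13 were not called, with a median of -0.22. COL15A1 and COL5A3 rose by 1.69 ± 0.22 and 1.50 ± 0.12, and the basement membrane pair COL4A1 and COL4A2 fell with -0.91 ± 0.10 and -0.68 ± 0.11. The main fibrillar genes COL1A1 and COL1A2, at -0.09 ± 0.09 and 0.13 ± 0.11, were not called. Integrins and adhesion receptors had 3 of 23 higher and 7 lower, with ITGB8 at 1.18 ± 0.22 and ITGA7 at -0.79 ± 0.14 at the ends.

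Axon guidance genes, which also act in fibroblast migration, rose in 17 of 30 cases and fell in 7, with a median of 0.43. The SLIT receptor ROBO2 rose by 5.49 ± 0.33, the netrins NTN4 and NTN1 by 3.22 ± 0.09 and 1.83 ± 0.45, and SEMA5A by 1.88 ± 0.09. NTN4 went from 564 to 5254. The receptors EPHB2, NRP2 and EPHA2 fell with -1.35 ± 0.11, -1.09 ± 0.12 and -0.57 ± 0.13.

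Lipid synthesis and degradative organelles were among the lists with most genes higher. Of 35 sterol and fatty acid genes, 26 rose and 1 fell, with a median of 0.82. The sterol reductase TM7SF2 rose by 2.46 ± 0.20, HMGCS1, an early enzyme of cholesterol synthesis, by 2.22 ± 0.11, the acetyl-CoA synthetase ACSS2 by 1.71 ± 0.10 and the methylsterol oxidase MSMO1 by 1.50 ± 0.12. HMGCS1 went from a mean normalized count of 992 to 4634. The cholesterol exporter ABCA1, which sterol excess is known to raise, also rose, by 1.40 ± 0.10. The fatty acid genes FASN, ACLY and FADS2, at -0.17 ± 0.13, -0.03 ± 0.08 and 0.15 ± 0.09, were not called. Of 39 lysosome genes, 28 rose and 2 fell, with a median of 0.42. The cathepsins CTSK, CTSS and CTSO rose by 1.75 ± 0.11, 1.51 ± 0.20 and 1.16 ± 0.14 and the ceramidase ASAH1 by 0.98 ± 0.11, while CTSH and NPC1 fell with -1.25 ± 0.18 and -0.26 ± 0.08. Of 27 autophagy genes, 17 rose and 2 fell, with a median of 0.34. Genes of the ATG8 family, which coat the autophagosome, rose: GABARAPL1 by 1.31 ± 0.10, GABARAPL2 by 0.94 ± 0.13, MAP1LC3B by 0.93 ± 0.13 and MAP1LC3A by 0.86 ± 0.15. The receptor SQSTM1 fell with -0.27 ± 0.10.

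Of 37 interferon-stimulated genes, 14 rose and 8 fell, with a median of -0.03, near that of all genes. IFI27 and IFI6 rose by 2.83 ± 0.18 and 2.65 ± 0.11 and OAS1 by 1.45 ± 0.17, whereas OASL and HERC5 fell with -2.20 ± 0.19 and -0.86 ± 0.22. IFIT1 and IFIT3, at -0.14 ± 0.10 and -0.14 ± 0.10, were not called. In antigen presentation 13 of 24 tested genes rose and 0 fell, with a median of 0.41. HLA-DMA rose by 1.88 ± 0.22, HLA-B by 1.23 ± 0.10, the immunoproteasome subunit PSMB9 by 1.11 ± 0.17 and B2M, the common light chain of class I molecules, by 0.9996 ± 0.10. Class I genes are close copies of each other and may share reads. Of 22 complement and coagulation genes, 15 rose and 3 fell, with a median of 0.72. The central complement gene C3 went from 120.2 to 991 in mean normalized count, a change of 3.04 ± 0.15, and the complement inhibitor SERPING1 rose by 2.22 ± 0.11. The protease-activated receptors F2RL1 and F2R fell with -0.96 ± 0.23 and -0.82 ± 0.09. In the NF-kB list 10 of 19 rose and 0 fell, with a median of 0.28, led by SOD2 at 1.35 ± 0.09 and RELB at 0.93 ± 0.16. That count was 6 at an adjusted p under 0.01, and 6 relative to the median of ribosomal protein genes.

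Of 28 NRF2, antioxidant and iron genes, 12 rose and 5 fell. The copper and iron oxidase HEPH rose by 5.15 ± 0.24, the selenium carrier SEPP1 by 4.02 ± 0.18 and the iron exporter SLC40A1 by 2.51 ± 0.17, while the NRF2 targets GCLM and TXNRD1 fell with -0.65 ± 0.13 and -0.56 ± 0.10. In the ATF4 and amino acid list 10 of 25 rose and 3 fell. DDIT4, an inhibitor of mTOR, rose by 1.76 ± 0.11 and ATF3 by 1.23 ± 0.25, ATF4 itself at 0.13 ± 0.12 was not called, and the transporter SLC1A5 and the serine enzyme PHGDH fell with -1.06 ± 0.10 and -0.65 ± 0.10. Glutamine metabolism had 2 of 19 genes higher and 7 lower, with the transporter SLC38A5 lowest at -1.71 ± 0.17. Of 29 glycolysis and hypoxia genes, 10 rose and 8 fell, a balance that turned to 10 and 11 relative to the median of ribosomal protein genes. HK2 rose by 0.99 ± 0.10, PFKP fell with -0.92 ± 0.10, and PGK1, ALDOA and LDHA, at 0.08 ± 0.10, -0.04 ± 0.11 and -0.19 ± 0.11, were not called. In the list of aldehyde, prostaglandin and sphingolipid enzymes 11 of 23 rose and 4 fell. The alcohol dehydrogenase ADH1B rose by 3.52 ± 0.43, the retinaldehyde dehydrogenase ALDH1A1 by 2.42 ± 0.10 and the prostacyclin synthase PTGIS by 2.37 ± 0.09.

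Among regulators of identity and timing, 6 of 27 tested HOX and mesenchymal factors rose and 5 fell, and 16 were not called; relative to the median of ribosomal protein genes 5 rose and 6 fell. TWIST2 rose by 1.04 ± 0.14, HOXD8 fell with -1.13 ± 0.43, and PRRX1 and ZEB2, at 0.11 ± 0.09 and 0.10 ± 0.10, were not called. Of 16 clock genes, 5 rose and 7 fell: ARNTL, the partner of CLOCK, rose by 0.77 ± 0.20, while the repressors PER3 and CRY1 fell with -1.36 ± 0.12 and -0.91 ± 0.13. Of 24 immediate early and ERK feedback genes, 10 rose and 3 fell, with SPRY1 at 2.39 ± 0.30 and FOSL1 at -0.54 ± 0.10 at the ends. Of 18 noncoding RNAs, 8 rose and 5 fell, with TP53TG1, an RNA that p53 induces, at 1.33 ± 0.19 and DLEU2 at -1.27 ± 0.25. The hosts of small nucleolar RNAs GAS5 and SNHG1, at -0.47 ± 0.29 and -0.32 ± 0.38, were not called.

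The 15 largest increases and 15 largest decreases among genes with a base mean above the median of 184 were also named by rule. Of the increases not yet described, FOXE1, a forkhead factor, rose by 3.45 ± 0.20, the chemokine CXCL14 by 3.17 ± 0.20, PSG5, a pregnancy-specific glycoprotein, by 3.18 ± 0.10 and TXNIP, an inhibitor of thioredoxin, by 2.98 ± 0.12. TXNIP went from a mean normalized count of 567 to 4456. PSG genes are close copies of each other, so the value of a single one is uncertain. Among the decreases, NPTX2, a neuronal pentraxin, had the largest, -6.71 ± 0.30. The neuronal intermediate filament genes NEFH and INA fell with -4.80 ± 0.20 and -3.004 ± 0.15, the kainate receptor partner NETO2 with -3.09 ± 0.13 and SAMD11 with -3.52 ± 0.22. Further members were the histone copies HIST2H3A and HIST2H3C at -3.17 ± 0.21 and -3.09 ± 0.18 and the pseudogene UBE2SP1 at -2.78 ± 0.22, whose reads could come from UBE2S.

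The same hairpins were compared in senescent cells, in libraries that share none with the young ones. In the libraries labelled shFbxo22 senescent, FBXO22 was higher and not lower than in shLuc senescent, at 1.01 ± 0.12, so their label is not borne out by the targeted gene. The difference in FBXO22 between the states was -1.82 ± 0.20 (normal test from the authors' 2 SE, adjusted p = 9.88e-19). Each gene's young effect minus its senescent effect was tested in this way over 19966 genes, of which 6625 were called (33.2%): 3249 were more positive in young cells (16.3%) and 3376 more negative (16.9%). Of the 4389 genes called in both tables, 1395 had opposite signs, all with a called difference, and 2994 had the same sign. These counts rest on the direction of the senescent comparison. With that direction turned, as if its 2 hairpin labels were exchanged (an alternative chosen after seeing the data), 9361 genes had a called difference, 2994 of the genes called in both tables had opposite signs, and FBXO22 differed by 0.20 ± 0.20 (adjusted p = 0.444).

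With the direction as labelled, the young effect was more positive for 36 of 37 interferon-stimulated genes, with medians of -0.03 in young cells and -2.03 in the libraries labelled shFbxo22 senescent against shLuc. The young effect was also more positive for 30 of 35 sterol and fatty acid genes (medians 0.82 and -0.61) and for 29 of 39 lysosome genes (medians 0.42 and -0.43). It was more negative for 24 of 28 YAP and serum response targets (medians 0.04 and 0.80). The p53 arrest targets were high in both comparisons, with medians of 1.57 and 2.50, and for 9 of 18 of them the young effect was the lower one and for 3 the higher. For the mitotic kinase list the medians were -2.03 and -1.33, and the young effect was more negative for 13 and more positive for 0 of 25 genes. With the senescent direction turned, the senescent medians take the other sign and the young effect was more positive for 4 and more negative for 31 of the interferon-stimulated genes. It was more positive for 13 and more negative for 10 of the sterol and fatty acid genes, for 14 and 9 of the lysosome genes, and for 22 and 3 of the YAP and serum response targets. All 18 p53 arrest targets tested in both were then more positive in young cells, at medians of 1.57 and -2.50, and all 25 mitotic kinase genes more negative, at -2.03 and 1.33.

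**Figure D5:**
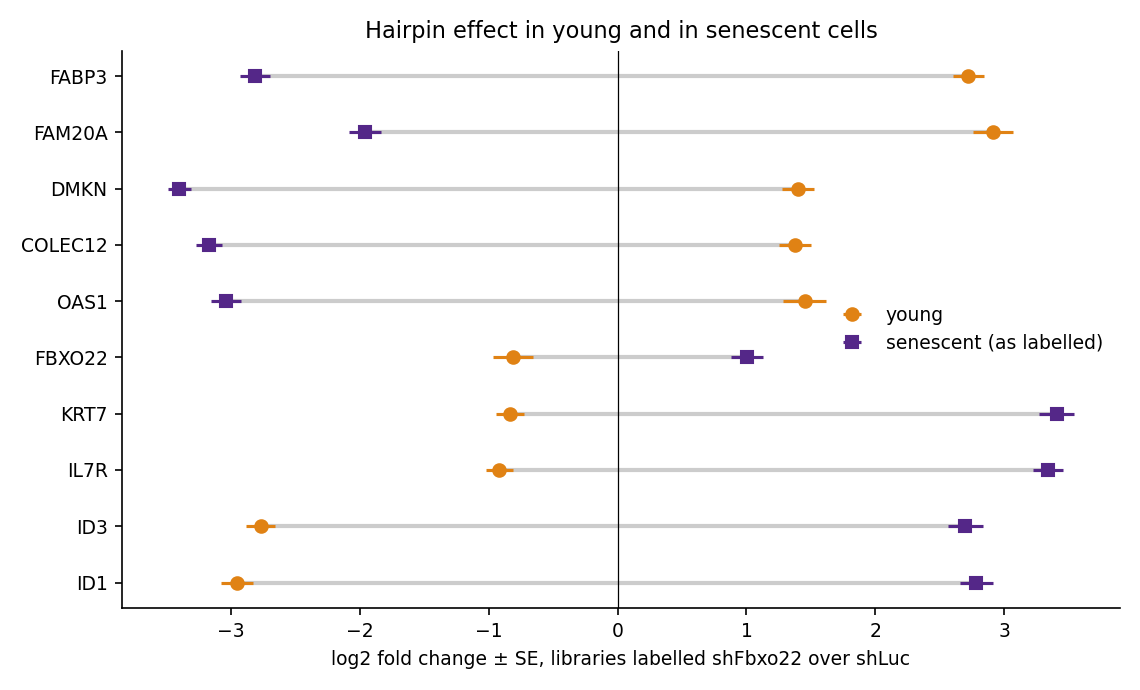
Log2 fold change with the authors' SE, libraries labelled shFbxo22 over shLuc, in young (circles) and senescent (squares) cells, for FBXO22 and 9 genes with large differences between the states, chosen among genes called in the young table and in the difference with base means above the median in both tables. With the direction as labelled, each gene lies on opposite sides of 0 in the 2 states; ID1 is at -2.95 in young cells and 2.78 in senescent ones.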

How the data were processed

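RNA of 3 shLuc and 3 shFbxo22 libraries of young HCA2 cells was compared, in groups taken from the sample titles. Per the labels' protocols, the RNA came from RNeasy columns and the library kit was the Ion Total RNA-Seq kit v2. Tools named in the submitters' processing notes, without their roles, are DESeq2 1.14.1, STAR 2.3.0, R 3.2.2 and Bowtie2 2.0.0, and the builds are GRCh37 and hg19. A base mean, which is normalized signal averaged over 6 libraries, stands in each deposited table. The authors deposited a log2 fold change and its SE. The Wald score is deposited too, as named in the header. The p-value and adjusted p-value are the authors' own. Depth per library is unknown from these tables, and genes without an adjusted p (low base mean) entered no count. A call is an adjusted p under 0.05.

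Signs were settled from group means that 2 tables share: of 16 choices, the one used gave a mean absolute log2 difference of 0.00918 over 9109 genes, the next 0.131, so the senescent hairpin table and the shFbxo22 senescence table were turned. In all 83.9% of tested genes had both group means within 10% in the 2 tables. The difference between states was the young minus the senescent log2 fold change, divided by the square root of the sum of both squared SE. It was read as a normal z, with p adjusted after Benjamini and Hochberg, and was tested on simulated data. Those data were drawn without moderation of the fold changes, so they cannot show how moderation affects the test. Tests on values per library, which the design had foreseen, could not be run on these tables.

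The members and 52 gene lists were chosen with earlier results of these data known. Of 1291 list entries, 1247 were tested. Named by rule were FBXO22, up to 5 list members with the largest called changes, up to 3 that moved against their list, up to 3 abundant ones not called, the 15 largest changes each way above the median base mean, and the 5 largest differences between states each way. MDM2, PPM1D, PLK2, NCAPD2, PRC1, MCM3, MCM6, MCM7 and the families in the closing section stand outside it; they were chosen after their values were seen or for their promoter windows. Windows of chromosome 8 were not used. Some genes that the rule names are not reported here. Gene symbols are as in the tables. Tables were read with Python 3.11.15, pandas 2.3.3, numpy 2.4.6 and scipy 1.17.1, and drawn with matplotlib 3.10.9. Alternatives are listed in the closing section.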

Additional observations from a re-analysis of the deposited data

Results flagged for a closer look

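The genes below are named because their hairpin effect differed between young and senescent cells in a test of the difference itself (normal z from the authors' deposited fold changes and SE, Benjamini-Hochberg over 19966 genes, of which 33.2% were called). For FBXO22 the young effect minus the senescent one was -1.82 ± 0.20 on the log2 scale. In the libraries labelled shFbxo22 senescent the targeted gene was higher than in shLuc senescent, so a direction drawn from them rests on a label that the targeted gene does not bear out. With the senescent direction turned, the FBXO22 difference was 0.20 ± 0.20 (adjusted p = 0.444).

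Among genes called in the young table and in the difference, with base means above the median in both tables, the largest positive differences were in FABP3, a fatty acid carrier, at 5.54 ± 0.17, FAM20A, a pseudokinase of the secretory pathway, at 4.87 ± 0.20, DMKN, the secreted protein dermokine, at 4.80 ± 0.15, COLEC12, a scavenger receptor, at 4.55 ± 0.16 and OAS1, an interferon-induced synthetase, at 4.49 ± 0.20. FABP3 rose by 2.72 ± 0.12 in young cells and was at -2.82 ± 0.12 in the senescent comparison. DMKN was at 1.40 ± 0.12 in young and -3.40 ± 0.09 in senescent cells, and OAS1 at 1.45 ± 0.17 and -3.04 ± 0.12.

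Among the most negative differences under the same limits were ID1 at -5.74 ± 0.18, ID3 at -5.47 ± 0.17, IL7R, the receptor of interleukin 7, at -4.26 ± 0.16 and KRT7, a keratin, at -4.24 ± 0.18. ID1 and ID3 fell in young cells, at -2.95 ± 0.13 and -2.77 ± 0.11, and were at 2.78 ± 0.13 and 2.70 ± 0.14 in the senescent comparison. KRT7 was at -0.84 ± 0.11 in young and 3.41 ± 0.14 in senescent cells. With the senescent direction turned, an alternative chosen after seeing the data, the differences of FABP3, ID1 and ID3 were -0.10, -0.17 and -0.07 and were not called (adjusted p from the same test 0.685, 0.464 and 0.769). FAM20A kept its direction at 0.95, and the other 5 were called in the opposite direction, with DMKN at -2.001, COLEC12 at -1.79, OAS1 at -1.59, IL7R at 2.42 and KRT7 at 2.57. Of the 461 genes named by rule for the young comparison, 303 had a called difference, and 366 with the direction turned. The 303 are to be read against 33.2% of all genes, and the 366 against the 9361 of 19966 genes called with the direction turned. Many of the named genes were chosen for large young effects, while others were abundant list members that were not called.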

How the results depend on the processing

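The young calls were recomputed under 8 alternatives, and none of these turned the direction of a called gene named here. All 8 rest on the same young libraries, and a change of threshold or filter cannot turn a direction. The counts of 3753 genes higher and 3465 lower became 1094 and 1118 when at least a 2-fold change was also asked for, under which FBXO22, at -0.81, was no longer called. They became 1741 and 1499 when the young effect was rebuilt by way of the other 3 tables, whose summed errors are larger. Of those calls, 1737 and 1497 were called in the same direction in the young table. On this route the senescent groups cancel and the same young libraries remain, so the shared direction is no independent check. Because the errors of 3 tables are summed, the lower counts do not show that effects were weaker. The other settings left the counts within 1.5 times: 2878 and 2626 at an adjusted p under 0.01, 3414 and 3115 with no filter on base mean (35400 genes), 3350 and 3159 with a base mean of at least 50, and 3874 and 3352, 3146 and 4134, and 3995 and 3247 after centring on the median gene, on the median ribosomal protein gene and on equal summed means. The centres subtracted were -0.01, 0.07 and -0.02. After ribosomal protein centring 43.2% of the calls were higher, the lowest share of these settings. Of 104 counts by list and direction, 78 moved by over 1.5 times when at least a 2-fold change was asked for, 44 by way of the other 3 tables, 10 at an adjusted p under 0.01, 5 with ribosomal protein centring, 2 with a base mean of at least 50, and 1 each with no filter and with equal summed means. Among those by way of the other tables, which carry the larger summed errors, were the CDK inhibitors, with 3 higher and 2 lower. The list members FOS, ETV4, NDUFV1, PTGDS and MIR210HG lost their call with no filter on base mean. Turning the senescent direction, chosen after seeing the data, turned the young minus senescent difference to 0.20 for FBXO22, -0.10 for FABP3, -2.001 for DMKN, -1.79 for COLEC12, -1.59 for OAS1, 2.42 for IL7R and 2.57 for KRT7, and gave 4847 and 4514 called differences in place of 3249 and 3376. No paired analysis was possible because values of single libraries were not at hand, and for the same reason leaving out each replicate and refitting with other normalizations were not run. Precision is limited by 3 libraries a group and, at low base means, by moderation of the fold changes.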

Other observations

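Some gene families were looked at after their values were seen, so their counts are a description of the authors' deposited table and no test of the family was made. Clustered protocadherins, cell surface proteins encoded in tandem arrays, were mostly higher with shFbxo22 in young cells. Of 14 tested beta genes 12 rose and 0 fell, with a median log2 change of 1.66, led by PCDHB16 at 4.23 ± 0.35, PCDHB7 at 3.22 ± 0.47 and PCDHB2 at 3.11 ± 0.45. The tested beta genes were weakly expressed, with base means from 4.62 to 77.5, while the lowest base mean of any tested gene was 4.15. Members low in both groups would not be tested, so some may be counted only through their level with shFbxo22, and the count cannot be read as a share of the array. Of 21 tested gamma genes 16 rose and 1 fell, with a median of 1.20. PCDHGB1 rose by 2.48 ± 0.36, whereas the last genes of the array did not follow: PCDHGC3 fell with -0.41 ± 0.14, and PCDHGC4 and PCDHGC5, at 0.03 ± 0.42 and -0.04 ± 0.31, were not called. The gamma genes share their last exons and the beta genes are close copies, so reads could be split between members. Of 6 tested protocadherins outside the arrays, 1 rose and 2 fell.

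Pregnancy-specific glycoprotein genes, also close copies in 1 array, had 7 of 10 tested members higher and 0 lower, with PSG2 at 2.69 ± 0.21 and PSG1 at 2.01 ± 0.17 after PSG5. Of 15 tested tubulin genes, 10 fell and 1 rose: TUBB4B was at -0.998 ± 0.09, TUBA1B at -0.94 ± 0.12 and TUBB at -0.57 ± 0.09, while TUBA1A rose by 0.40 ± 0.10. Of 12 tested keratins, 4 rose and 3 fell, with a median of 0.29. Among those that rose, KRT16 and KRT38 were weakly expressed, and keratins low in both groups would not be tested. KRT16 and KRT38 may thus be counted only through their level with shFbxo22, and the count cannot be read as a share of all keratins. Of 8 intermediate filament genes outside the keratins and lamins, 6 fell and 1 rose. Beside NEFH, DES and INA, the fall was smaller in NES at -0.58 ± 0.11 and SYNM at -0.76 ± 0.17, VIM at 0.21 ± 0.12 was not called, and NEFL rose by 1.56 ± 0.47. The background is 18.7% of genes higher and 17.3% lower.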
